A study of Mus musculus with 18 samples.

Results

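The 6 genes described here make, break down, move or sense extracellular adenosine. They are *Entpd1*, *Nt5e*, *Ada*, *Adk*, *Slc29a1*, and *Adora2a*, and they were taken by symbol from a table of 55491 genes measured by bulk RNA-Seq. All 6 were found, and all 6 passed the filter on low counts in each of the 11 comparisons. The libraries were made from B cells of female BALB/cJ mice aged 10 to 12 weeks. Every mouse, controls included, was sensitized i.p. with 1 mg alum and 20 µg OVA on days 0 and 14. The mice were then treated i.v. on days 28 and 42 with 100 µL PBS, with 100 µg soluble OVA, or with 2.5 mg of OVA-encapsulating nanoparticles (OVA NPs), and B cells were taken from the spleen or from Peyer's patches (PP) on day 44. The particles were made of poly(lactide-co-glycolide), and by the loading given in the study's methods they carried the same mass of OVA as the soluble dose. B cells were left untouched by a magnetic selection that removed other cell types, so B cells of all stages were pooled in a library, and unsensitized mice were not analysed here. The design gave 3 libraries for each of the 6 combinations of tissue and treatment, 18 in all. The study compared OVA NPs with PBS within a tissue. The comparisons here also set soluble OVA against PBS and against OVA NPs, and B cells of the gut against those of the spleen. The labels number the libraries of a group as biological replicates without naming animals, and nothing ties a spleen library to a PP library of the same mouse, so p-values measure the spread between these libraries.

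ATP that leaves a cell acts as a danger signal, and a pair of surface enzymes turns it into adenosine, which mostly restrains immune cells. CD39, the product of *Entpd1*, removes phosphates from ATP and ADP to give AMP, and CD73, the product of *Nt5e*, removes the last phosphate to give adenosine. Adenosine is sensed by receptors such as the product of *Adora2a*, which raises cyclic AMP, and it is cleared by deamination to inosine by *Ada* or, once carried into the cell by the transporter ENT1 (*Slc29a1*), by phosphorylation back to AMP by *Adk*. CD73 and CD39 are found together on B cells that release adenosine, and CD73 also marks class-switched and germinal center-derived B cells.

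The promoter windows of the members are shown first because the transcript differences below are read at these genes. RefSeq gave a window of 250 bases before to 50 bases after the start on GRCm38.p6 for 5 of the 6 genes, with 14 windows in all since some genes have several starts. *Adora2a* had no entry. The windows of *Nt5e*, *Entpd1* (its first start), and *Ada* are printed for the 2 surface enzymes and for the member with the largest treatment differences. Capitals mark matches, on either strand, to the motifs searched.
*Nt5e*, chr9:88327359-88327658, plus strand: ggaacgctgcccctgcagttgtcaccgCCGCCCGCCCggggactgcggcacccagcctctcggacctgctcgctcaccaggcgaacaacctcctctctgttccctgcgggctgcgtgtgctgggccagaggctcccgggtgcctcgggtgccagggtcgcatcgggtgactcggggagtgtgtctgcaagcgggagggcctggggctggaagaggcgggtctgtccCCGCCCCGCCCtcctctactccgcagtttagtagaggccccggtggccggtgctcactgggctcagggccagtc
*Entpd1*, chr19:40612116-40612415, plus strand: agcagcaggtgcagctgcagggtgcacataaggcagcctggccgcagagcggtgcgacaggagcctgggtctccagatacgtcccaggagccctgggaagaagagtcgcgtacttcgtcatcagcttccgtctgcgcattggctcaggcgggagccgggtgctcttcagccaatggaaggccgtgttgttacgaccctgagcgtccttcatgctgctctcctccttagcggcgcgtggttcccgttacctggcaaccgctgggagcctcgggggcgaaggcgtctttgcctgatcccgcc
*Ada*, chr2:163750190-163750489, minus strand: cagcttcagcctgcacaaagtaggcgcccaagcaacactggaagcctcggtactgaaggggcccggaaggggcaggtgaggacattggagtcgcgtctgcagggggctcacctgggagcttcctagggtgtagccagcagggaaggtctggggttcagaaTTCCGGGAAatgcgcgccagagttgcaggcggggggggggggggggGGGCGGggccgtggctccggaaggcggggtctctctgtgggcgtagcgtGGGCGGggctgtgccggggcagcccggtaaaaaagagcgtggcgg
The motifs were the GC box GGGCGG, the cyclic AMP response element TGACGTCA, the E box CACGTG, the octamer ATGCAAAT, the TATA box TATAAA, the AP-1 site TGANTCA, and the STAT site TTCNNNGAA. The *Nt5e* window was 71.0% G or C and held 4 GC boxes, read on the opposite strand as CCGCCC, in 2 places where neighbouring matches shared bases. The *Ada* window was 68.0% G or C and held 2 GC boxes and 1 STAT site. The *Entpd1* window was 64.0% G or C and held none of the 7 motifs, and neither did that of its second start. Over all 32851 windows the median was 52.7% G or C, a GC box was present in 35.7%, and a STAT site in 8.30%. The cyclic AMP response element stood in 1.79% of all windows, the octamer in 1.74%, the E box in 7.15%, the TATA box in 13.6%, and the AP-1 site in 7.81%. Of these last 5 motifs, an E box in 1 of the 8 windows of *Slc29a1* was the sole match among the 14 windows. *Adk* held 4 GC boxes in each of its 2 windows. A match is a run of letters and was not tested as a binding site.

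Library totals ran from 14177253 to 30052297 counts, and 3 counts stood for 0.0998 to 0.212 CPM depending on the library, a limit of counting error only. Every group carried B cell transcripts at high level, and these were lower in PP. The 7 B cell markers summed to between 7885 and 9251 CPM in spleen and to between 5466 and 6783 CPM in PP. Markers of gut epithelium summed to between 14.7 and 17.5 CPM in spleen and to between 244 and 1223 CPM in PP, so PP libraries also held epithelial RNA. Mitochondrial transcripts took 2.82% to 3.41% of counts in spleen. In PP they took 5.41% to 7.67% with PBS, 4.97% to 6.02% with soluble OVA, and 9.08% to 9.80% with OVA NPs, so the OVA NP libraries lay above all others. The part of this share in the PP differences was not tested. In bulk libraries, a lower share of cells that express a gene and less RNA per cell cannot be told apart.

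**Figure D1:**
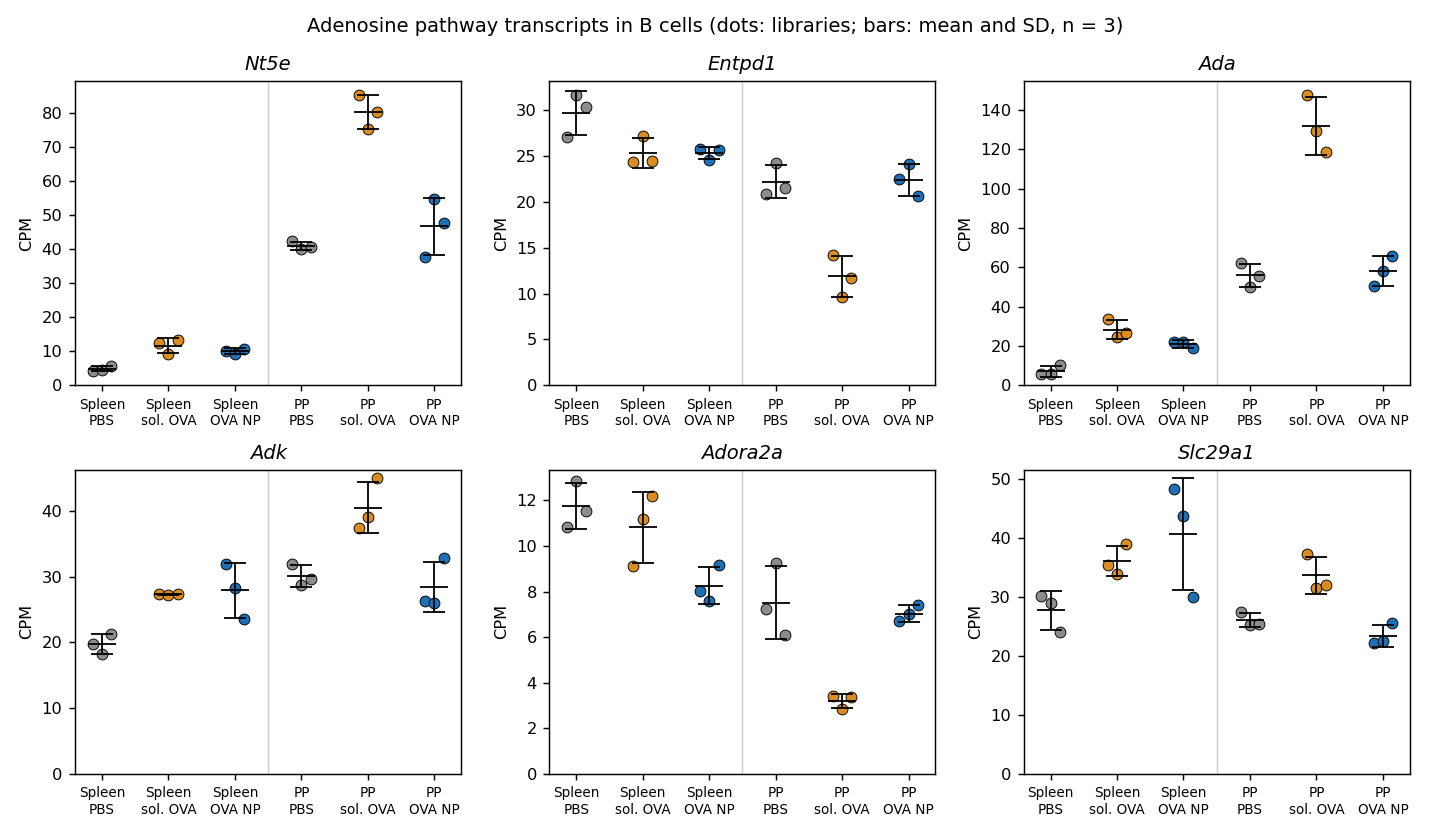
CPM (counts scaled to the library total) of the 6 genes in each of the 18 libraries, by tissue and treatment. Dots are libraries, and bars are the mean and SD (n = 3). *Nt5e* and *Ada* were higher in every PP library than in any spleen library, and soluble OVA gave the highest PP levels of both, while *Entpd1* and *Adora2a* were lowest in PP of soluble OVA mice.

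Per kilobase of exon, a scale on which levels of different genes can be set side by side, the order of the genes depended on the tissue. In spleen of PBS mice, *Slc29a1* led at 6.90 ± 0.811 CPM per kb (mean ± SD, n = 3), followed by *Entpd1* at 5.33 ± 0.423, and *Nt5e* was lowest at 0.552 ± 0.0864. In PP of PBS mice, *Ada* led at 27.9 ± 3.03 CPM per kb, and *Nt5e*, at 4.76 ± 0.131, stood above *Entpd1* at 3.98 ± 0.324.

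Splenic B cells of mice given OVA NPs had more *Nt5e*, *Ada*, and *Adk* transcript and less *Adora2a* than those of PBS mice. A gene was called different when the adjusted p of edgeR's quasi-likelihood test, taken over all genes, was under 0.05 and the log2 fold change was above 0.25 in size. By this rule 4 of the 6 members were called, 3 higher and 1 lower, in a comparison in which 15.0% of 14200 tested genes were called (8.60% higher and 6.35% lower), and 38.2% had libraries of the groups that did not overlap in CPM. Soluble OVA in spleen raised *Nt5e*, *Ada*, *Adk*, and *Slc29a1*, so 4 of 6 were called, all higher, where 17.2% of 14128 genes were called (10.5% higher and 6.72% lower) and 38.5% had groups without overlap. These comparisons share the 3 PBS libraries of the spleen. Set directly against each other in spleen, OVA NPs and soluble OVA gave 0 of 6 members called by edgeR and 0 by DESeq2, with 2 at an unadjusted p under 0.05 (*Ada* and *Adora2a*), where 0.238% of 13840 genes were called, 8.66% had an unadjusted p under 0.05, and 15.0% had groups without overlap.

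In PP, every member passed the test with soluble OVA and no member passed it with OVA NPs. Soluble OVA against PBS gave 6 of 6 members called, with *Nt5e*, *Ada*, *Adk*, and *Slc29a1* higher and *Entpd1* and *Adora2a* lower, where 27.4% of 15792 genes were called (13.5% higher and 13.9% lower) and 45.5% had groups without overlap. OVA NPs against PBS gave 0 of 6 called by edgeR, 0 by DESeq2 and 0 at an unadjusted p under 0.05. In that comparison edgeR called 0% of 15798 genes, with 1573 (9.96%) at an unadjusted p under 0.05, and DESeq2 called 150. The 95% intervals of the 6 differences in PP all covered 0 and reached up to 0.50 log2, for *Nt5e*, and down to -0.55 log2, for *Adora2a*. OVA NPs against soluble OVA in PP gave 6 of 6 called, each in the direction opposite to soluble OVA against PBS, where 30.1% of 15599 genes were called (13.8% higher and 16.3% lower) and 49.0% had groups without overlap. Those PP comparisons share the soluble OVA libraries.

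**Figure D2:**
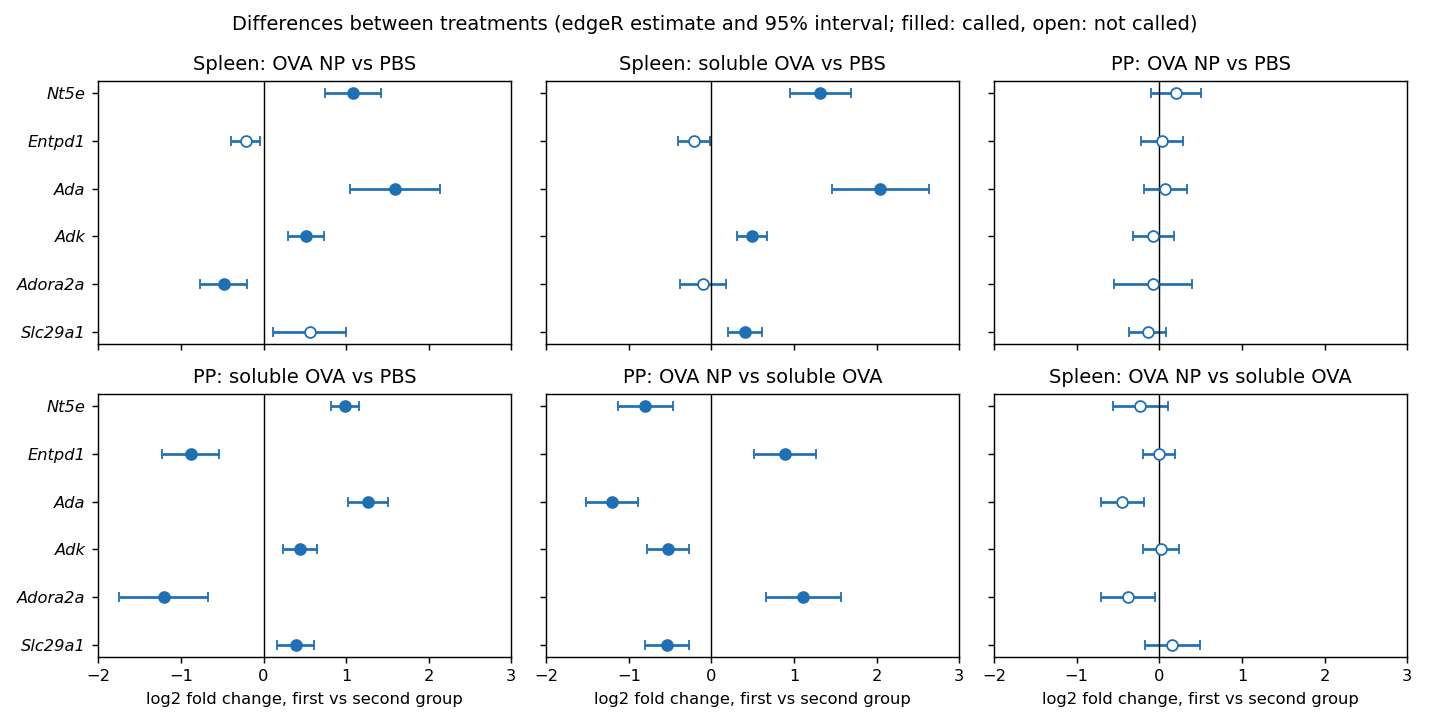
Log2 fold change of each gene between treatments within a tissue, first group over second group, with the 95% interval of the edgeR fit over 3 against 3 libraries. Filled points were called and open points were not. All 6 points are filled in the PP panels that include soluble OVA, and none are filled for OVA NP against PBS in PP or OVA NP against soluble OVA in spleen.

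*Entpd1*, whose product CD39 starts the breakdown of ATP, passed no test between treatments in spleen and fell in PP after soluble OVA. The gene (ENSMUSG00000048120) spans chromosome 19, 40612366 to 40741602, plus strand, on GRCm38. In spleen, *Entpd1* stood at 27.1, 31.7, and 30.4 CPM in the 3 PBS libraries, 24.4, 27.2, and 24.4 CPM after soluble OVA, and 25.8, 24.5, and 25.7 CPM after OVA NPs. The PBS libraries were the highest of the spleen apart from one soluble OVA library that overlapped them, and the OVA NP libraries lay below all PBS libraries, as was so in one direction or the other for 38.2% of tested genes. Neither the OVA NP difference (log2 fold change -0.21, SE 0.08, adjusted p of edgeR = 0.0836) nor the soluble OVA difference (log2 fold change -0.21, SE 0.09, adjusted p of edgeR = 0.114) was called. In PP, *Entpd1* stood at 20.8, 24.3, and 21.6 CPM with PBS, 14.2, 9.66, and 11.7 CPM with soluble OVA, and 22.5, 24.2, and 20.6 CPM with OVA NPs. The 3 soluble OVA libraries were the lowest of all 18. *Entpd1* fell after soluble OVA (log2 fold change -0.88, SE 0.15, adjusted p of edgeR = 0.00295), a 1.85-fold lower level, and the log2 fold change of OVA NPs against PBS was 0.03 with a 95% interval from -0.23 to 0.28. Against soluble OVA, OVA NP libraries were 1.86-fold higher (adjusted p of edgeR = 0.00397).

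*Nt5e*, whose product CD73 makes adenosine from AMP, rose with soluble OVA in both tissues and with OVA NPs in spleen. The gene (ENSMUSG00000032420) spans chromosome 9, 88327197 to 88372092, plus strand. In spleen, *Nt5e* stood at 4.15, 4.51, and 5.58 CPM with PBS, 12.3, 9.13, and 13.3 CPM with soluble OVA, and 10.1, 9.04, and 10.7 CPM with OVA NPs. Every treated library was above every PBS library, and the treated groups overlapped. The rise was 2.49-fold for soluble OVA (log2 fold change 1.32, SE 0.17, adjusted p of edgeR = 0.000104) and 2.12-fold for OVA NPs (log2 fold change 1.09, SE 0.16, adjusted p of edgeR = 0.000289). The study listed *Nt5e* among regulatory B cell genes that it selected as differing between OVA NPs and PBS in these same spleen libraries, so that call is not independent evidence of its direction. The log2 fold change of OVA NPs against soluble OVA in spleen was -0.23, with a 95% interval from -0.57 to 0.10. In PP, *Nt5e* stood at 42.2, 40.1, and 40.6 CPM with PBS, 85.4, 75.4, and 80.2 CPM with soluble OVA, and 37.7, 54.6, and 47.7 CPM with OVA NPs. The soluble OVA libraries lay above all others, and the OVA NP libraries reached below and above the PBS libraries. The PP rise with soluble OVA was 1.99-fold (log2 fold change 0.99, SE 0.07, adjusted p of edgeR = 8.22e-05), and OVA NP libraries were 1.74-fold lower than soluble OVA libraries (adjusted p of edgeR = 0.00488).

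The balance of the ectoenzyme transcripts was taken within each library as the per-length level of *Nt5e* over that of *Entpd1*, which does not depend on the library total. In spleen this ratio was 0.0994, 0.0922, and 0.119 with PBS, 0.328, 0.218, and 0.354 with soluble OVA, and 0.253, 0.239, and 0.270 with OVA NPs. In PP it was 1.32, 1.07, and 1.22 with PBS, 3.90, 5.07, and 4.43 with soluble OVA, and 1.09, 1.46, and 1.50 with OVA NPs. All 9 PP libraries had a ratio above 1 and all 9 spleen libraries a ratio below 1. With soluble OVA in PP, both genes moved the ratio the same way, *Nt5e* up and *Entpd1* down, and the mean ratio was 4.46 (SD 0.585, n = 3) against 1.20 (SD 0.123) with PBS. No test was run on the ratios.

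*Ada*, which deaminates adenosine and deoxyadenosine, had the largest rise of the 6 genes in each comparison of a treatment with PBS in which it was called. The gene (ENSMUSG00000017697) spans chromosome 2, 163726584 to 163750239, minus strand. In spleen, *Ada* stood at 5.45, 5.47, and 10.1 CPM with PBS, 33.5, 24.4, and 26.5 CPM with soluble OVA, and 21.7, 22.1, and 18.8 CPM with OVA NPs. The third PBS library was the highest of its group and still lay below every treated library. The rise was 4.13-fold with soluble OVA (log2 fold change 2.04, SE 0.25, adjusted p of edgeR = 0.00141) and 3.02-fold with OVA NPs (log2 fold change 1.59, SE 0.23, adjusted p of edgeR = 0.00286). The OVA NP libraries lay below all soluble OVA libraries, and that difference was not called (log2 fold change -0.45, SE 0.12, adjusted p of edgeR = 0.231). In PP, *Ada* stood at 62.0, 49.9, and 55.6 CPM with PBS, 148, 129, and 119 CPM with soluble OVA, and 50.4, 58.3, and 65.6 CPM with OVA NPs. The soluble OVA libraries lay far above the other PP libraries, which overlapped each other. *Ada* rose 2.40-fold with soluble OVA (log2 fold change 1.26, SE 0.11, adjusted p of edgeR = 0.000101), was 2.31-fold lower with OVA NPs than with soluble OVA (adjusted p of edgeR = 0.000728), and differed from PBS with OVA NPs by a log2 fold change of 0.07, with a 95% interval from -0.19 to 0.33.

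*Adk*, which returns adenosine to AMP inside the cell, rose wherever *Ada* rose with treatment, by smaller amounts. The gene (ENSMUSG00000039197) spans chromosome 14, 21052574 to 21448569, plus strand. In spleen, *Adk* stood at 19.7, 18.3, and 21.3 CPM with PBS, 27.4, 27.2, and 27.4 CPM with soluble OVA, and 31.9, 28.3, and 23.6 CPM with OVA NPs. All treated libraries were above all PBS libraries. The log2 rise was 0.49 (SE 0.09, adjusted p = 0.00132) with soluble OVA and 0.51 (SE 0.10, adjusted p = 0.00268) with OVA NPs, both by edgeR. In PP, *Adk* stood at 32.0, 28.7, and 29.7 CPM with PBS, 37.5, 39.2, and 45.0 CPM with soluble OVA, and 26.4, 26.1, and 32.8 CPM with OVA NPs. The soluble OVA libraries lay above the rest, with a log2 rise over PBS of 0.45 (SE 0.09, adjusted p = 0.00635) by edgeR. Per length, *Ada* over *Adk* in the same library was 1.18, 1.27, and 2.02 in spleen with PBS and 5.21, 3.83, and 4.13 with soluble OVA. In PP it was 8.26, 7.40, and 7.98 with PBS and 16.8, 14.1, and 11.3 with soluble OVA. In both tissues the soluble OVA libraries had ratios above all those of PBS.

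*Slc29a1*, which encodes the equilibrative transporter ENT1, rose with soluble OVA in both tissues and had 1 discordant library among those of OVA NPs in spleen. The gene (ENSMUSG00000023942) spans chromosome 17, 45585200 to 45599606, minus strand, and an antisense gene over one of its exons had 0 to 6 counts per library. In spleen, *Slc29a1* stood at 30.2, 28.9, and 24.0 CPM with PBS, 35.3, 33.9, and 38.9 CPM with soluble OVA, and 48.2, 43.7, and 30.0 CPM with OVA NPs. The third OVA NP library lay within the range of PBS, and the others above it. In these 3 libraries, 7 erythroid markers summed to 91.0, 83.0, and 37.4 CPM and 14 myeloid markers to 328, 269, and 94.1 CPM. With PBS the sums were 34.3 to 57.7 CPM and 154 to 373 CPM. The part of these cells in the *Slc29a1* difference was not tested. Soluble OVA against PBS was called (log2 fold change 0.40, SE 0.09, adjusted p of edgeR = 0.00815) and OVA NPs against PBS was not (log2 fold change 0.56, SE 0.18, adjusted p of edgeR = 0.0848). Without the third OVA NP library the difference was 0.73 log2 and was called (adjusted p of edgeR = 1.76e-05). With all libraries it was called by DESeq2 (adjusted p = 0.00147), without the filter on low counts (3.85e-08), and in the edgeR fit to all 18 libraries (0.0111). In that same fit the soluble OVA call in spleen was lost (adjusted p of edgeR = 0.0556). In PP, *Slc29a1* stood at 27.4, 25.3, and 25.4 CPM with PBS, 37.3, 31.5, and 32.0 CPM with soluble OVA, and 22.2, 22.4, and 25.6 CPM with OVA NPs. Soluble OVA libraries were above all other PP libraries (log2 fold change 0.39, SE 0.10, adjusted p of edgeR = 0.0171).

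*Adora2a*, the gene of the receptor that raises cyclic AMP when adenosine binds, was the member that fell most in PP with soluble OVA. The gene (ENSMUSG00000020178) spans chromosome 10, 75316877 to 75334784, plus strand. In spleen, *Adora2a* stood at 10.9, 12.8, and 11.5 CPM with PBS, 9.13, 11.2, and 12.2 CPM with soluble OVA, and 8.03, 7.60, and 9.15 CPM with OVA NPs. The OVA NP libraries lay below all PBS libraries, while the soluble OVA libraries overlapped both. The OVA NP difference was called (log2 fold change -0.48, SE 0.13, adjusted p of edgeR = 0.0189) and was the least firm of the spleen calls. It was lost without OVA NP replicate 1 (adjusted p of edgeR = 0.0545), without OVA NP replicate 2 (0.0901), without PBS replicate 2 (0.0967), and in the fit to all 18 libraries (0.0785). Soluble OVA against PBS gave a log2 fold change of -0.10, with a 95% interval from -0.39 to 0.18. In PP, *Adora2a* stood at 7.22, 9.24, and 6.08 CPM with PBS, 3.39, 2.86, and 3.38 CPM with soluble OVA, and 6.69, 6.996, and 7.41 CPM with OVA NPs. The soluble OVA libraries were the lowest of all 18, 2.31-fold below PBS (log2 fold change -1.21, SE 0.24, adjusted p of edgeR = 0.00548) and, the other way, OVA NP libraries were 2.16-fold above them (adjusted p of edgeR = 0.00367). The other adenosine receptor genes were at low levels, with group means of at most 0.311 CPM for *Adora1*, 0.765 CPM for *Adora2b*, and 0.799 CPM for *Adora3*.

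Between tissues, B cells of PP carried more *Nt5e* and *Ada* than those of spleen under every treatment. In PBS mice 5 of 6 members were called, 3 higher and 2 lower in PP, where 45.6% of 15463 genes were called (25.5% higher and 20.1% lower) and 62.5% had groups without overlap. *Nt5e* was 9.11-fold higher in PP (log2 fold change 3.19, SE 0.12, adjusted p of edgeR = 2.66e-07) and *Ada* 8.46-fold higher (log2 fold change 3.08, SE 0.24, adjusted p of edgeR = 9.27e-05), while *Adk* was higher by 0.69 (SE 0.09, adjusted p = 0.000196) on the log2 scale of edgeR. *Entpd1* and *Adora2a* were lower in PP, by log2 fold changes of -0.35 and -0.57. Both of those calls depended on single libraries. *Entpd1* was lost without PP replicate 1 (adjusted p of edgeR = 0.0520) or spleen replicate 2 (0.0646), and *Adora2a* without PP replicate 1 (0.0618) or 3 (0.0517) or spleen replicate 2 (0.0895) or 3 (0.0533). *Slc29a1* had a log2 difference of -0.01, with a 95% interval from -0.24 to 0.22.

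With soluble OVA, again 5 of 6 members were called between the tissues, where 51.1% of 15415 genes were called (26.7% higher and 24.3% lower in PP) and 64.1% had groups without overlap. *Nt5e* was 7.22-fold and *Ada* 4.89-fold higher in PP, *Adora2a* was 3.21-fold and *Entpd1* 2.03-fold lower, and no PP library overlapped a spleen library for any of these. With OVA NPs, 3 of 6 were called, where 37.1% of 15466 genes were called (22.0% higher and 15.1% lower in PP) and 59.1% had groups without overlap. *Nt5e* was 5.02-fold and *Ada* 2.99-fold higher in PP, and *Slc29a1* was 1.61-fold lower, its PP libraries lying below all spleen libraries. *Entpd1*, *Adk*, and *Adora2a* were not called there, with log2 differences of -0.08, 0.13, and -0.14.

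**Figure D3:**
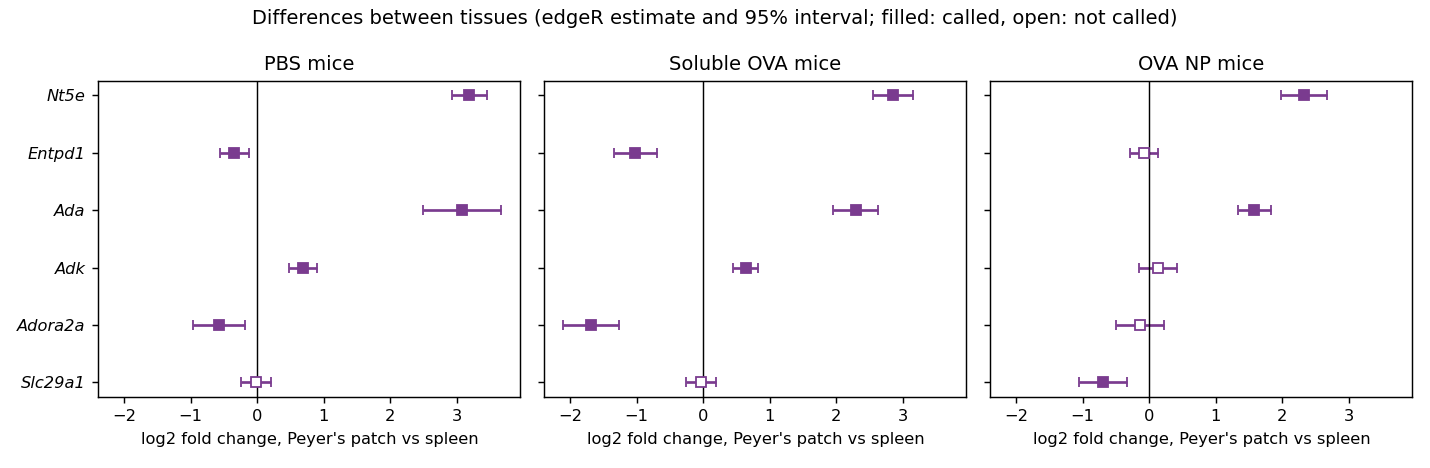
Log2 fold change of each gene in PP over spleen B cells within each treatment, with the 95% interval of the edgeR fit over 3 against 3 libraries. Filled squares were called and open squares were not. *Nt5e* and *Ada* sit to the right in all 3 panels, nearest to 0 in OVA NP mice.

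Whether a treatment difference was unequal between the tissues was read from the tissue-by-treatment term, called at an adjusted p of edgeR under 0.05. For OVA NPs against PBS, *Nt5e* and *Ada* were called, 2 of 6 members, both with a lower difference in PP, where 4.42% of 16619 genes were called (3.54% lower). The interaction term, the OVA NP difference in PP minus that in spleen on the log2 scale of edgeR, was -0.87 (SE 0.20, adjusted p = 0.0259) for *Nt5e* and -1.51 (SE 0.28, adjusted p = 0.0133) for *Ada*. The *Nt5e* call was lost without PP PBS replicate 1, spleen OVA NP replicate 1 or 3, or spleen PBS replicate 1 or 2, with adjusted p of edgeR from 0.0525 to 0.0817, and that of *Ada* was kept without any single library. For soluble OVA against PBS, *Entpd1* and *Adora2a* were called, 2 of 6 and both lower, where 6.84% of 16541 genes were called (5.07% lower), with interaction terms of -0.67 (SE 0.18, adjusted p = 0.0385) and -1.10 (SE 0.26, adjusted p = 0.0175). The *Entpd1* call was lost on leaving out any library but PP soluble OVA replicate 1 (adjusted p of edgeR from 0.0519 to 0.118), and that of *Adora2a* without spleen PBS replicate 1 (0.0623). For *Nt5e* the soluble OVA interaction was -0.33 log2, with a 95% interval from -0.71 to 0.06. That of *Ada* was -0.78 log2 (adjusted p of edgeR = 0.174) and was called without spleen PBS replicate 3 (-1.12 log2, adjusted p = 0.0100).

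Marker transcripts of B cell subsets moved in several of the same comparisons. In spleen, 10 germinal center B cell markers summed to 212 to 312 CPM with PBS, 546 to 712 CPM with soluble OVA, and 495 to 535 CPM with OVA NPs. In PP the sums were 1502 to 1704 CPM, 2481 to 2573 CPM, and 1154 to 1606 CPM in the same order. By the median of this sum the 6 groups stood in the order of mean *Nt5e*, but the PP sums with PBS and with OVA NPs overlapped. Between those groups the markers had a median log2 fold change of -0.11 with OVA NPs, while that of *Nt5e* was 0.20. Of the 10 germinal center markers, 8 were called higher with OVA NPs and 9 with soluble OVA in spleen, 8 with soluble OVA in PP, and 10 in PP over spleen under each treatment, while 8 were called lower with OVA NPs than with soluble OVA in PP. In PP with OVA NPs against PBS, edgeR called 0 of them, with 1 at an unadjusted p under 0.05. Plasma cell markers, 8 in all, summed to 483 to 556 CPM in spleen with PBS, 629 to 713 CPM with soluble OVA, and 752 to 767 CPM with OVA NPs. In PP the sums overlapped, at 1057 to 1149 CPM, 1030 to 1147 CPM, and 1088 to 1178 CPM. Of 7 tested in spleen, 4 were called higher with OVA NPs, and 4 higher and 1 lower with soluble OVA. Of all tested genes, 8.60% were called higher with OVA NPs, and 10.5% higher and 6.72% lower with soluble OVA.

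Proliferation transcripts moved with *Ada* in most comparisons, though few of them were called between the tissues in OVA NP mice. The 11 markers summed to 745 to 856 CPM in spleen with PBS, 1667 to 1826 CPM with soluble OVA, and 1440 to 1965 CPM with OVA NPs. In PP they summed to 2110 to 2556 CPM, 4590 to 4893 CPM, and 1719 to 2375 CPM. All 11 were called higher in each spleen treatment against PBS, in PP with soluble OVA against PBS, and in PP over spleen with PBS and with soluble OVA, and all 11 lower with OVA NPs than with soluble OVA in PP. Of all tested genes, 8.60% with OVA NPs and 10.5% with soluble OVA were called higher in spleen, and 13.5% with soluble OVA in PP. In PP over spleen, 25.5% with PBS and 26.7% with soluble OVA were called higher, and 16.3% were called lower with OVA NPs than with soluble OVA in PP. In PP over spleen with OVA NPs, *Ada* was 2.99-fold higher. There 2 of 11 proliferation markers were called higher, beside 22.0% of all tested genes. All 11 had a log2 fold change above 0, with a median of 0.27. Between OVA NPs and soluble OVA in spleen, edgeR called 0 of 11, with 0 at an unadjusted p under 0.05. *Ada* was not called there either, but its libraries did not overlap (log2 fold change -0.45, unadjusted p of edgeR = 0.00256). Of 10 germinal center markers, 1 was called lower there, and 7 had an unadjusted p under 0.05, beside 0.238% and 8.66% of all tested genes. In PP with OVA NPs against PBS, edgeR called 0 of 11, with 0 at an unadjusted p under 0.05. Marginal zone B cell markers, 7 in all, summed to 2212 to 2405 CPM in spleen with PBS, 1823 to 2131 CPM with soluble OVA, and 1887 to 2089 CPM with OVA NPs. In PP they summed to 1050 to 1155 CPM, 812 to 818 CPM, and 1044 to 1168 CPM, lowest in the soluble OVA group that also had the least *Entpd1*. There 4 of 7 were called lower against PBS, beside 13.9% of all tested genes. *Entpd1* was also called, in the direction of these markers, with OVA NPs against soluble OVA in PP, where 3 of 7 were called higher. The same held in PP over spleen with PBS and with soluble OVA, where 6 of 7 were called lower under each treatment. Of all tested genes, 13.8% were called higher in the first of these, and 20.1% and 24.3% lower in the others. In further comparisons these markers were called and *Entpd1* was not. Of the 7, 3 were called lower in spleen under each treatment against PBS, and 5 in PP over spleen with OVA NPs, beside 6.35%, 6.72%, and 15.1% of genes. The part of B cell subsets and of cycling cells in the differences of the members was not tested.

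Markers of other cell types also moved in some of these comparisons. With OVA NPs against soluble OVA in PP, where *Entpd1* and *Adora2a* were higher, 9 of 13 T cell markers were called higher and 1 lower (median log2 fold change 1.45), and 6 of 11 myeloid markers were called higher (0.91). Of all tested genes, 13.8% were called higher and 16.3% lower there. T cell markers summed to 165 to 185 CPM with soluble OVA and 154 to 176 CPM with OVA NPs in PP, mostly from *Lck*, the marker that was lower. *Cd3e*, a subunit of the T cell receptor complex, was at 0.940 to 2.03 CPM with soluble OVA and 4.50 to 5.89 CPM with OVA NPs. Myeloid markers summed to 133 to 154 CPM with soluble OVA, 159 to 228 CPM with PBS, and 222 to 312 CPM with OVA NPs in PP. With soluble OVA against PBS in PP, where *Entpd1* and *Adora2a* were lower, 2 of 11 T cell, 2 of 11 myeloid, and 4 of 10 stromal and endothelial markers were called lower. Of all tested genes, 13.9% were called lower there, and the T cell and myeloid counts are close to that share. The stromal and endothelial markers summed there to 107 to 135 CPM against 246 to 304 CPM, with 177 to 221 CPM after OVA NPs. In spleen, 4 of 11 myeloid markers were called lower with soluble OVA and 2 of 12 with OVA NPs, beside 6.72% and 6.35% of all tested genes. The myeloid sum was 154 to 373 CPM with PBS, 85.4 to 174 CPM with soluble OVA, and 94.1 to 328 CPM with OVA NPs. In PP over spleen in PBS mice, 7 of 8 T cell, 8 of 10 stromal and endothelial, and 8 of 8 epithelial markers were called higher. There 5 of 5 erythroid and 7 of 13 myeloid markers were called lower, and 2 myeloid higher. Of all genes, 25.5% were called higher and 20.1% lower. Of 7 B cell markers, 5 were called lower in PP under each treatment. Erythroid markers summed to 34.3 to 91.0 CPM in spleen and 0.413 to 10.6 CPM in PP. With OVA NPs, 4 of 5 were called lower in PP, beside 15.1% of genes. The epithelial sums of PP overlapped between treatments, at 244 to 875 CPM with PBS, 300 to 1223 CPM with soluble OVA, and 568 to 1208 CPM with OVA NPs. The part of these cell types in the differences of the members and of the pathway genes below was not tested.

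**Figure D4:**
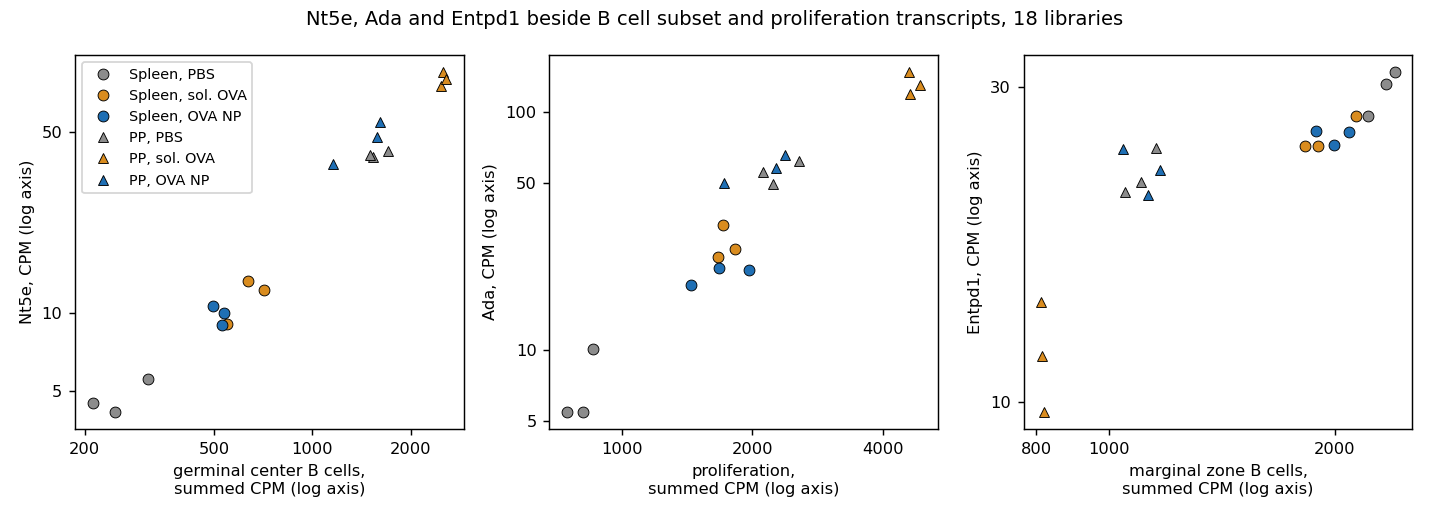
CPM of *Nt5e*, *Ada*, and *Entpd1* in each of the 18 libraries against the summed CPM of germinal center B cell, proliferation, and marginal zone B cell markers, on log axes. Circles are spleen and triangles PP, and colors are treatments. The 3 PP soluble OVA libraries lie at the upper right for *Nt5e* and *Ada* and at the lower left for *Entpd1*.

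Across the 18 libraries, some members moved alike. On log2 CPM, Pearson's r was 0.96 for *Nt5e* and *Ada* and 0.95 for *Entpd1* and *Adora2a*, and after subtracting the mean of each tissue these were 0.96 and 0.91. *Nt5e* and *Entpd1* were opposed, with r of -0.78 and -0.67 after centring. *Slc29a1* was close to unrelated to *Nt5e* over all libraries (r of -0.27) and positive after centring (0.69). Of 11984 genes compared, those closest to *Nt5e* over all libraries were *Clip2* (r = 0.991), *Sh2b2* (0.991), and *Ranbp17* (0.986). After centring by tissue they were *Neil3*, a DNA repair glycosylase, *Phf19*, a Polycomb-associated protein, and *Kif23*, a kinesin of cytokinesis, with r from 0.966 to 0.968. Those closest to *Entpd1* were *Plcb2* (0.978), *Satb1* (0.976), and *Zfp945* (0.974), and after centring *Zfp945* (0.967), *Plcb2* (0.966), and *Anxa6* (0.965). These r values describe 18 libraries that share 6 groups, so they mostly restate the group differences.

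The wider pathway was read from 6 lists of 83 other genes for nucleotide and adenosine handling. In spleen, 8 rose and 4 fell of 64 tested with OVA NPs, and 10 rose and 9 fell of 64 with soluble OVA, beside 15.0% and 17.2% of all tested genes called. Of 18 salvage enzymes of the cell interior, 6 were called with OVA NPs and 7 with soluble OVA, all of them higher, and 12 and 11 were not called. Those called under both treatments included *Dck*, the kinase that salvages deoxynucleosides, *Pnp*, which splits inosine and guanosine, and *Ahcy*, which frees adenosine from S-adenosylhomocysteine. With OVA NPs in spleen the log2 rises were 0.44 for *Dck*, 0.56 for *Pnp*, and 0.39 for *Ahcy*, and with soluble OVA 0.75, 0.56, and 0.48. Among extracellular enzymes, *Enpp1*, which makes AMP from ATP in one step, rose from 53.8 to 68.1 CPM with soluble OVA and to 63.4 CPM with OVA NPs (log2 rises of 0.36 and 0.26). *Entpd4*, a nucleotidase of inner membranes, fell by 0.37 log2 with OVA NPs and by 0.29 with soluble OVA. Cyclic AMP phosphodiesterase genes were among those that fell, with *Pde7a* and *Pde8a* lower under both treatments (log2 fold changes of -0.38 and -0.36 with OVA NPs, -0.42 and -0.45 with soluble OVA) and *Pde4b* lower with soluble OVA (-0.42). The salvage list had a median log2 fold change of 0.19 with OVA NPs and 0.14 with soluble OVA, beside 0.00 and -0.01 over all tested genes.

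The remaining spleen calls were few. With OVA NPs, *Prkar1a*, a regulatory subunit of protein kinase A, was 0.25 log2 higher, and *Slc28a2*, a concentrative nucleoside transporter, 0.26 log2 lower. With soluble OVA, *Rapgef3*, the cyclic AMP sensor Epac1, went from 3.73 to 6.35 CPM and *P2ry12*, an ADP receptor, from 0.601 to 1.49 CPM. The genes that fell there were *P2rx7*, the ATP-gated channel (-0.69 log2), the surface enzymes *Bst1* (-0.80) and *Dpp4* (-0.38), and the transporters *Slc29a4* (-0.52) and *Slc29a3* (-0.26). Between OVA NPs and soluble OVA in spleen, edgeR called 0 of 63, with 11 at an unadjusted p under 0.05, and DESeq2 called 0. Of all tested genes, edgeR called 0.238%, and 8.66% had an unadjusted p under 0.05.

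In PP with soluble OVA against PBS, 11 rose and 11 fell of 71 tested, beside 27.4% of all tested genes called. Of 17 salvage enzymes, 8 were called higher, 1 lower, and 8 were not called, where 13.5% of all genes were called higher. *Dck* went from 162 to 335 CPM (log2 fold change 1.07), *Ahcy* from 48.7 to 83.6 CPM (0.80), and *Pnp* from 58.8 to 89.9 CPM (0.63), while *Ampd3*, an AMP deaminase, fell from 13.3 to 6.54 CPM. Of 15 other extracellular enzyme genes 1 rose and 4 fell, and of 12 genes for P2 receptors and ATP release 2 fell. *P2rx4*, an ATP-gated channel, fell by 1.16 log2, *Cd38*, which consumes NAD at the surface, by 0.89, *Enpp4*, an ectophosphodiesterase, by 0.98, *Entpd4* by 0.80, and *Entpd6* by 0.46, with *Enpp1* the exception at 0.29 higher. The nucleoside transporters *Slc29a3*, of lysosomes, and *Slc29a4* fell by 0.63 and 0.83 log2, opposite to *Slc29a1*. Of the genes that turn cyclic AMP over, *Pde4a* (1.03) and *Pde3b* (0.53) rose, and *Pde8a* (-0.87) and the adenylate cyclase *Adcy7* (-0.36) fell. *P2ry10*, a receptor of lysophospholipids, was lower by 1.59 log2. *Pnp*, *Entpd4*, and *P2ry10* each have a near-identical copy in the mouse genome (*Pnp2*, *Entpd4b*, *P2ry10b*), so how the counting shared reads between copies makes their levels uncertain.

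OVA NPs in PP gave 0 of 72 called against PBS by edgeR, with 11 at an unadjusted p under 0.05, and 4 by DESeq2. Of all tested genes, edgeR called 0%, 9.96% had an unadjusted p under 0.05, and DESeq2 called 0.902%. Against soluble OVA in PP, 14 of 72 were called higher and 11 lower with OVA NPs, beside 13.8% and 16.3% of all tested genes. The higher genes included *P2rx4* (1.25 log2), *P2rx7* (1.09), *Cd38* (0.88), *Ampd3* (0.91), *Acpp*, a transmembrane acid phosphatase that also makes adenosine from AMP (0.87), and *Alpl*, an alkaline phosphatase (0.84). The lower genes included *Dck* (-1.09), *Ahcy* (-1.003), *Pnp* (-0.72), *Nt5c3b*, a cytosolic nucleotidase (-0.63), and *Enpp1* (-0.45).

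Between the tissues in PBS mice, 23 pathway genes were called higher in PP and 17 lower of 70 tested, beside 25.5% and 20.1% of all tested genes. *Prkar2b*, a regulatory subunit of protein kinase A, stood at 24.6 CPM in spleen against 1.16 CPM in PP. *Adcy7* (-0.70 log2), *Pde8a* (-1.14), and *Pde4d* (-1.42) were also lower in PP, as were *Cd38* (-0.94), *Alpl* (-1.54), and *Ampd3* (-0.95). *Rapgef3* (1.96), *Dck* (1.36), *Enpp1* (1.32), and *Pnp* (1.07) were higher in PP. *Entpd8* and *Slc28a1*, both typical of gut epithelium, had 0 counts in the 3 spleen PBS libraries and averaged 3.85 ± 1.69 and 3.38 ± 2.03 CPM (SD, n = 3) in PP, where all 8 epithelial markers were called higher as well. The part of epithelial RNA in such PP levels was not tested.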

How the data were processed

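B cell libraries from spleen and Peyer's patches were sequenced by the authors, who trimmed reads with cutadapt 2.3, mapped them to GRCm38 (Ensembl annotation) with STAR 2.7.8a, and estimated gene expression with RSEM 1.3.3. The deposited values are RSEM expected counts, not normalized, and all were whole numbers (0 exceptions), so rounding changed none. RSEM shares reads among gene copies, and whether the counting used strand is not given in the sources used here.

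Groups came from the labels. CPM was computed on library totals, and levels per kb used merged exon lengths of GENCODE vM21. Genes kept by filterByExpr (minimum count 10, minimum total 15) were normalized by TMM and tested with the robust quasi-likelihood F test of edgeR 4.0.16 in R 4.3.3, with p-values adjusted over every tested gene (Benjamini-Hochberg). The authors' tool, DESeq2, served as an alternative (version 1.42.0). The other alternatives were DESeq2 size factors, no filter, 10 counts in every library, a fit to all 18 libraries, a replicate block, no fold change cutoff, and leaving out each library. The scripts were tested on simulated data.

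All 6 members were named in every comparison. Of the pathway lists, called genes with a mean of at least 1 CPM were named, up to 4 in each direction per list (some such genes are not reported here), and for *Nt5e* and *Entpd1* the 3 closest genes by r. The members and lists were chosen with earlier results of these data known. Sequences came from RefSeq (GRCm38.p6). The replicate numbers were not taken as pairs in the main tests, because the study describes no replicate block. Same-numbered libraries did not deviate together (r from -0.38 to 0.23 in 9 comparisons).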

Additional observations from a re-analysis of the deposited data

Results flagged for a closer look

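In 4 cases the difference between a treatment and PBS differed between the tissues by the interaction test of edgeR. For OVA NPs, the PP difference minus the spleen difference was -0.87 log2 for *Nt5e* and -1.51 log2 for *Ada*, with a spleen rise that had no counterpart past the threshold in PP. For soluble OVA, it was -0.67 log2 for *Entpd1* and -1.10 log2 for *Adora2a*, which fell in PP and were not called in spleen. These calls were not equally firm. Of 12 fits that each left out 1 library, the call was lost in 11 for *Entpd1*, 5 for *Nt5e*, 1 for *Adora2a*, and 0 for *Ada*. In the OVA NP interaction, 8 of 10 germinal center markers and 11 of 11 proliferation markers were called lower, beside 3.54% of all tested genes. The part of these in the *Nt5e* and *Ada* terms was not tested. In the soluble OVA interaction, 0 of 11 proliferation markers were called by edgeR, with 3 at an unadjusted p under 0.05. There 6 of 10 germinal center markers were called lower, beside 5.07% of all tested genes.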

How the results depend on the processing

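The members called kept within 1.5 times of the reported count under most alternatives. The exceptions were as follows. Spleen, OVA NP against soluble OVA, gave 1 (*Ada*) without the filter on low counts, in place of 0. The OVA NP interaction gave 4 by DESeq2, without the filter, and in the fit to all 18 libraries, in place of 2, by adding *Adk* and *Slc29a1*. The soluble OVA interaction gave 1 in place of 2 with the replicate block, which lost *Entpd1* (adjusted p = 0.0703). Leaving out 1 library gave 1 to 3 members called in the OVA NP interaction, 0 to 2 in the soluble OVA interaction, 3 to 5 in PP against spleen with PBS, and 3 to 5 in spleen with OVA NPs against PBS. In each case the cause was not tested.

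The replicate block also made *Slc29a1* called with OVA NPs in spleen (adjusted p = 5.02e-04) and changed no other member's call. Of all tested genes, it took soluble OVA against PBS in PP from 4320 called to 3111, OVA NP against soluble OVA in PP from 4697 to 3119, and the OVA NP interaction from 734 to 429.

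The log2 fold changes that reversed were all of uncalled members near 0. With DESeq2 size factors, *Entpd1* in spleen with OVA NPs against soluble OVA was 0.0003. With 10 counts in every library, *Slc29a1* in PP against spleen was 0.0186 with PBS and 0.0140 with soluble OVA. The soluble OVA interaction of *Slc29a1* was 0.0041 by DESeq2, 0.0016 with its size factors, and 0.0256 without the filter. On leaving out 1 library, the ranges that crossed 0 were -0.1871 to 0.011 for *Adora2a* with soluble OVA in spleen, -0.0288 to 0.0478 and -0.0731 to 0.1202 for *Entpd1* and *Adk* with OVA NPs against soluble OVA in spleen, and -0.0369 to 0.1096, -0.0253 to 0.1722, and -0.2199 to 0.1064 for *Entpd1*, *Ada*, and *Adora2a* with OVA NPs in PP. They were -0.1159 to 0.0431 and -0.1104 to 0.0327 for *Slc29a1* in PP against spleen with PBS and with soluble OVA, and -0.085 to 0.018 and -0.095 to 0.1024 for the soluble OVA interactions of *Adk* and *Slc29a1*.

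With 3 libraries a group, uncalled differences are bounded only by their intervals. The calls of *Nt5e* and *Ada* against PBS and between tissues held under every alternative.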
